A study of Homo sapiens with 18 samples.

Results

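RNA of T47D cells, a human luminal breast cancer line, was measured for 10 genes of the AP-1 and immediate early group: FOS, FOSB, FOSL1, FOSL2, JUN, JUNB, JUND, ATF3, EGR1 and IER2. The genes were chosen by name, as the FOS and JUN families with ATF3, EGR1 and IER2, and they are 10 of the 58884 gene identifiers counted. They and the gene lists used below were chosen with earlier results of these data known. Their counts set beside those of all genes are therefore descriptions. All 10 passed the filter on low counts (summed over the libraries fitted, a gene needed more than 10 counts) in WT and in PARP1 KO. The 18 libraries form 6 groups of 3. Cells labelled T47D AAV with the genotype WT, and cells labelled T47D JL with the genotype PARP1 KO, were each given the vehicle DMSO, niraparib or olaparib. The drugs are clinical inhibitors of the DNA damage sensors PARP1 and PARP2, and both were applied at 10 μmol/L for 48 hours. All 6 groups share the parental line, the serum-containing medium and the duration, and per the methods of the study such cells were harvested with trypsin. Whether the PARP1 KO cells come from a single clone is not given in the sources used here, and the methods describe 3 dishes per condition without saying that each library came from its own dish, so P values measure the spread between these libraries, which may be technical.

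AP-1 is a transcription factor made of pairs of basic leucine zipper (bZIP) proteins. JUN, JUNB and JUND can pair among themselves or with a FOS protein, whereas FOS, FOSB, FOSL1 and FOSL2 need a JUN partner, and the pair binds the DNA element TGANTCA. FOS, FOSB, JUN, JUNB, EGR1 and IER2 are classical immediate early genes, which are transcribed within minutes of growth factor or stress signals without new protein synthesis and usually decay soon after. ATF3 is a bZIP protein of the integrated stress and DNA damage responses, EGR1 is a zinc finger factor driven by serum response factor, and IER2 is a short nuclear protein. In breast cancer cells, AP-1 acts with and against the estrogen receptor and is known for controlling proliferation and invasion genes.

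The libraries held between 28890837 and 52251288 counts. PARP1, the targeted gene, had 337 ± 27 CPM (counts scaled to library size, SD, n = 9) in WT and 25.1 ± 1.38 CPM (SD, n = 9) in PARP1 KO, with no overlap. All 9 luminal markers examined, among them ESR1, GATA3 and KRT8, had at least 1 CPM in every library. Of the 8 basal or mesenchymal markers, 6 stayed below 1 CPM, with TP63 at 1.24 to 2.54 CPM and COL1A1 at 88.3 to 153 CPM, and the 4 blood cell markers were below 1 CPM. The summed basal or mesenchymal markers in WT were 104 to 131 CPM with DMSO, 116 to 156 CPM with niraparib and 98.3 to 110 CPM with olaparib. Of the 6 tested in WT, 1 was higher with niraparib at an edgeR P value below 0.05 before adjustment, against 44.8% of all genes in either direction. The summed luminal markers were lower with the drugs in WT, at 9463 to 10473 CPM with niraparib and 10359 to 10801 CPM with olaparib against 13010 to 13630 CPM with DMSO. In PARP1 KO the sums were 13443 to 13737 CPM with niraparib, 12422 to 13412 CPM with olaparib and 14481 to 15167 CPM with DMSO. The part of this shift in the results below was not tested, and in RNA from whole cultures fewer cells of a kind and less RNA per cell cannot be told apart.

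Compared per length of exon, JUND was the most abundant of the 10 transcripts in every group. In WT with DMSO it stood at 74.4 ± 2.69 RPKM (CPM per kilobase of exon, SD, n = 3), followed by JUN at 50.0 ± 5.98, JUNB at 22.9 ± 0.287, IER2 at 22.4 ± 0.517, FOS at 14.4 ± 2.61, ATF3 at 13.7 ± 1.24, FOSL2 at 4.67 ± 0.444, EGR1 at 3.30 ± 0.728, FOSB at 1.46 ± 0.672 and FOSL1 at 0.140 ± 0.0754. Neighbors in this order did not overlap, except JUNB with IER2 and FOS with ATF3. Thus the JUN family was the larger pool, with a summed level of 147 ± 8.21 RPKM in WT with DMSO against 20.7 ± 3.03 RPKM for the FOS family. FOSL1, a FOS protein often linked to invasive breast cancer cells, was barely transcribed, with 6 to 12 counts per library in WT with DMSO. JUNB shares 259 exon bases with HOOK2 and IER2 shares 946 with an antisense gene, both on the opposite strand, and the counting used strand.

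**Figure D1:**
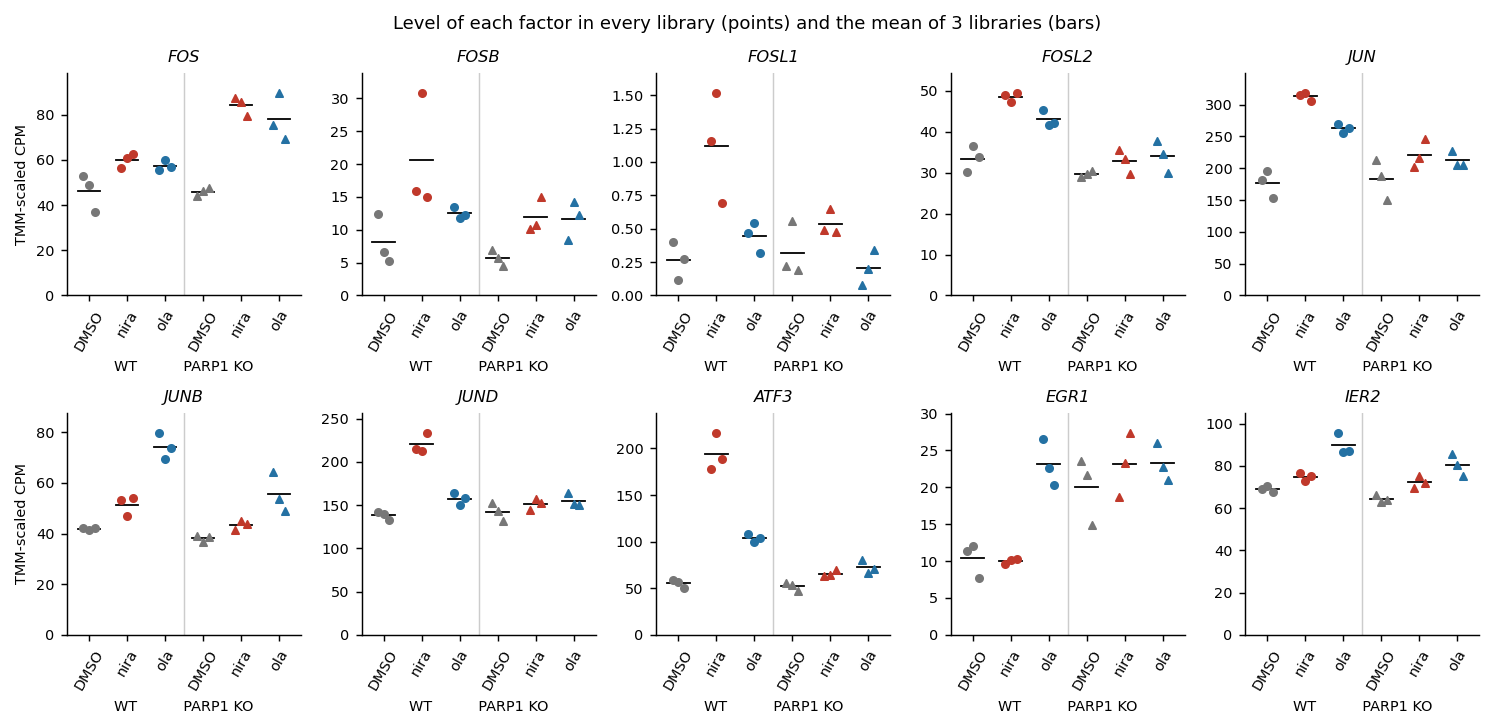
TMM-scaled CPM (y axes from 0, one scale per gene) of the 10 genes in each of the 18 libraries (circles, WT; triangles, PARP1 KO; gray, DMSO; red, niraparib; blue, olaparib), with the group mean as a black bar. ATF3, JUN and JUND are highest with niraparib in WT, JUNB and IER2 with olaparib in WT, and FOS with niraparib in PARP1 KO; EGR1 is low only with DMSO and niraparib in WT.

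Niraparib raised part of the group in WT. A gene was called when its edgeR quasi-likelihood P value, adjusted over all genes by the Benjamini–Hochberg method, was below 0.05 and its level changed more than 1.5-fold. Of the 10 genes, 5 were called higher (FOSB, FOSL1, JUN, JUND and ATF3) and 0 lower, where 13.8% of all 22446 genes tested were called and 8.10% were called higher. Without the fold criterion 8 were below 0.05, all higher, against 38.0% of all genes in either direction and 19.9% higher. The median log2 fold change of the 10 was 0.60, and that of all genes was -0.025.

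ATF3, on chromosome 1 from 212565334 to 212620777 of GRCh38, had the clearest rise. It stood at 59.2, 57.2 and 49.7 CPM with DMSO and at 178, 217 and 189 CPM with niraparib. Each niraparib library was over 3 times the mean of the DMSO libraries, and the log2 fold change was 1.81 (standard error 0.076, edgeR adjusted P = 5.5e-11). JUN, on chromosome 1 from 58780788 to 58784327, is the founding member of its family. Its level was 181, 196 and 154 CPM with DMSO and 315, 318 and 306 CPM with niraparib, with a wide gap between the groups. The log2 fold change of JUN was 0.82 (standard error 0.067, edgeR adjusted P = 3.5e-08). JUND, on chromosome 19 from 18279760 to 18281622, is the JUN protein that resting cells keep at a steady level. It went from 143, 140 and 133 CPM to 215, 213 and 234 CPM, again without overlap, a log2 fold change of 0.67 (standard error 0.050, edgeR adjusted P = 5.9e-10).

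The FOS side was more variable. FOSB, on chromosome 19 from 45467995 to 45475179, had 12.3, 6.69 and 5.28 CPM with DMSO and 15.9, 30.8 and 15 CPM with niraparib. The groups did not overlap, but niraparib replicate 2 stood apart from the other two, and the log2 fold change of 1.39 had a standard error of 0.41 (edgeR adjusted P = 0.038). FOSB was no longer called without DMSO replicate 2 (1.27, adjusted P = 0.12), DMSO replicate 3 (1.16, 0.11), niraparib replicate 1 (1.53, 0.050) or niraparib replicate 2 (0.96, 0.080), nor with no filter on low counts (1.39, 0.11). FOSL1, on chromosome 11 from 65892049 to 65900573, rose from 12, 6 and 11 counts to 39, 84 and 28 counts per library. Its log2 fold change was 2.18 (standard error 0.41, edgeR adjusted P = 1.9e-04), and at 0.691 to 1.51 CPM it was still the lowest of the 10.

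FOS itself, on chromosome 14 from 75278826 to 75282230, moved less in WT. It had 52.6, 48.7 and 36.7 CPM with DMSO and 56.6, 61.0 and 62.4 CPM with niraparib, so that all niraparib libraries were higher by a small margin. The log2 fold change of 0.38 (standard error 0.11, edgeR adjusted P = 0.021) was below 1.5-fold, and its adjusted P value was 0.097 without niraparib replicate 2 and 0.073 without niraparib replicate 3. FOSL2, on chromosome 2 from 28392448 to 28417317, rose by 0.53 on the log2 scale (standard error 0.065, edgeR adjusted P = 8.2e-07), also below 1.5-fold, and by 0.60 without DMSO replicate 2, which is above it. JUNB, on chromosome 19 from 12791486 to 12793315, a JUN protein with weaker transactivation, rose by 0.29 (standard error 0.063, edgeR adjusted P = 5.9e-04). The remaining genes were IER2 and EGR1. IER2, on chromosome 19 from 13150411 to 13154911, changed by 0.12 (standard error 0.052, edgeR adjusted P = 0.087). EGR1, on chromosome 5 from 138465479 to 138469303, had 11.3, 12 and 7.75 CPM with DMSO and 9.58, 10.2 and 10.3 CPM with niraparib. The groups overlapped, and the log2 fold change was -0.049 with a 95% interval from -0.37 to 0.28 (edgeR adjusted P = 0.84).

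Olaparib at the same dose also raised part of the group in WT. Of the 10 genes, 3 were called higher (JUNB, ATF3 and EGR1) and 0 lower, with 4.04% of all genes called and 2.06% called higher. With the adjusted P value alone 7 were higher, against 11.2% of all genes. The median log2 fold change of the 10 was 0.62, and that of all genes was -0.017. The DMSO libraries are the same as in the niraparib comparison, so the 2 comparisons are not independent.

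EGR1 with olaparib stood at 26.5, 22.6 and 20.4 CPM, above all DMSO libraries, with a log2 fold change of 1.16 (standard error 0.14, edgeR adjusted P = 1.3e-04). JUNB went from 42.2, 41.3 and 42.1 CPM with DMSO to 79.8, 69.3 and 73.8 CPM with olaparib. This was a log2 fold change of 0.83 (standard error 0.062, edgeR adjusted P = 5.8e-09), in a gene whose DMSO libraries were nearly alike. ATF3 reached 108, 99.4 and 104 CPM, a log2 fold change of 0.91 (standard error 0.075, edgeR adjusted P = 9.0e-07), which lay between DMSO and niraparib with no overlap on either side. IER2 had 95.7, 86.6 and 87.2 CPM against 69.1, 70.7 and 67.5 CPM with DMSO, a rise of 0.38 on the log2 scale (standard error 0.052, edgeR adjusted P = 1.6e-05) that was below 1.5-fold.

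JUN rose by 0.57 on the log2 scale with olaparib (standard error 0.067, edgeR adjusted P = 1.4e-05), just below 1.5-fold. It was above 1.5-fold without DMSO replicate 1 (0.59), DMSO replicate 2 (0.66) or olaparib replicate 2 (0.59). FOSL2 rose by 0.36 (edgeR adjusted P = 4.0e-04) and JUND by 0.19 (edgeR adjusted P = 0.010), and the adjusted P value of JUND was 0.069 without DMSO replicate 3 and 0.087 without olaparib replicate 1. FOS, FOSB and FOSL1 did not pass the test with olaparib. Their log2 fold changes were 0.32 for FOS (95% interval from 0.0705 to 0.58, edgeR adjusted P = 0.079), 0.66 for FOSB (-0.35 to 1.68, adjusted P = 0.36) and 0.85 for FOSL1 (-0.11 to 1.80, adjusted P = 0.23). FOS had an adjusted P value of 0.010 without DMSO replicate 1 and of 0.0074 with DESeq2.

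**Figure D2:**
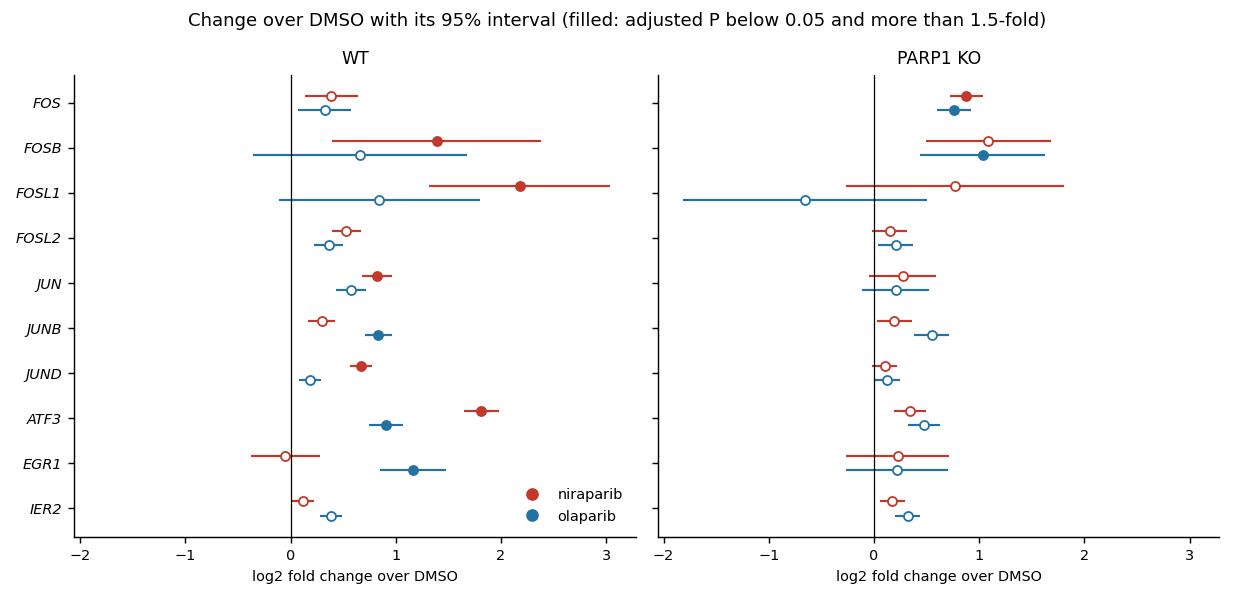
Log2 fold change over DMSO (x axes) of each gene (y axes) with its 95% interval, in WT (left) and PARP1 KO (right), for niraparib (red) and olaparib (blue); filled circles mark called genes. In WT, niraparib has filled circles for FOSB, FOSL1, JUN, JUND and ATF3 and olaparib for JUNB, ATF3 and EGR1; in PARP1 KO only FOS (both drugs) and FOSB (olaparib) are filled.

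The drugs were then compared with each other, as 1 pair of compounds at the same dose and time in each genotype, with P values adjusted over all genes. In WT, 3 of the 10 genes were called, FOSL1 and ATF3 higher and EGR1 lower with niraparib, where 8.95% of all genes were called, 5.62% higher and 3.33% lower. EGR1 had 9.58 to 10.3 CPM with niraparib and 20.4 to 26.5 CPM with olaparib (log2 fold change -1.21, standard error 0.14, edgeR adjusted P = 3.0e-05). JUNB and IER2 were lower with niraparib than with olaparib in every library, by less than 1.5-fold. JUNB differed by -0.54 on the log2 scale (standard error 0.062, edgeR adjusted P = 5.4e-07), or -0.59 without olaparib replicate 2, which is past 1.5-fold. IER2 differed by -0.27 (standard error 0.051, edgeR adjusted P = 2.9e-04).

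In the opposite direction, ATF3 was higher with niraparib by 0.90 on the log2 scale (standard error 0.073, edgeR adjusted P = 1.8e-07) and JUND by 0.48 (standard error 0.050, edgeR adjusted P = 1.5e-07). FOSL1 was higher by 1.33 (standard error 0.38, edgeR adjusted P = 0.0095). This call was lost without niraparib replicate 2 (1.04, adjusted P = 0.077) or olaparib replicate 3 (1.16, adjusted P = 0.055). JUN was higher by 0.25 (standard error 0.067, edgeR adjusted P = 0.0081), but its adjusted P value was 0.075 without niraparib replicate 2 and 0.14 with all 18 libraries in the fit. FOS (0.061, 95% interval from -0.19 to 0.31, edgeR adjusted P = 0.75), FOSB (0.72, -0.23 to 1.68, adjusted P = 0.24) and FOSL2 (0.17, 0.034 to 0.30, adjusted P = 0.051) did not pass the test. The FOS libraries of the 2 drugs overlapped, while every FOSB and FOSL2 library was higher with niraparib.

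Reference promoter sequences are shown for the 4 genes with a motif match. No relation between the motifs and the drug responses was tested, and FOSB, which was also called with niraparib, has a window without a match. The RefSeq table (GRCh38.p14) held a promoter window for 9 of the 10 genes, all but FOSL1. The 250 bases before each annotated start were searched on both strands for TGANTCA (the AP-1 element), for TGACNTCA (the longer element of JUN–ATF pairs), for TGACGTCA (the cyclic AMP element, which TGACNTCA includes) and for the CArG box of serum response factor. Matches are in capitals.
JUN (chr1:58784048-58784297, minus strand): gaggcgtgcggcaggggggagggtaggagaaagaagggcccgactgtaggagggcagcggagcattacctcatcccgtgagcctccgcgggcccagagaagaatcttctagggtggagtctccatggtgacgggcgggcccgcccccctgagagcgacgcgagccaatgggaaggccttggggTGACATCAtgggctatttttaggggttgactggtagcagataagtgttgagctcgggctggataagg
JUND (chr19:18281623-18281872, minus strand): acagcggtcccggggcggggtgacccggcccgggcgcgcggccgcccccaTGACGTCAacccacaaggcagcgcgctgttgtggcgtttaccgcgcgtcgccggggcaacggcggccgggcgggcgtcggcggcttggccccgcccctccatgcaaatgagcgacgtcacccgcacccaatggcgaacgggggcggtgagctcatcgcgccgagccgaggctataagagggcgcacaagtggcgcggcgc
ATF3 (chr1:212565157-212565406, plus strand): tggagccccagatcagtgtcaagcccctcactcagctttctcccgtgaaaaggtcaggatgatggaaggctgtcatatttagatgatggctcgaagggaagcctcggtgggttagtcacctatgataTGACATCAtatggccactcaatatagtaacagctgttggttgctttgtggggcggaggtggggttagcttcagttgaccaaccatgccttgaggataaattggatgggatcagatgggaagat
EGR1 (chr5:138465229-138465478, plus strand): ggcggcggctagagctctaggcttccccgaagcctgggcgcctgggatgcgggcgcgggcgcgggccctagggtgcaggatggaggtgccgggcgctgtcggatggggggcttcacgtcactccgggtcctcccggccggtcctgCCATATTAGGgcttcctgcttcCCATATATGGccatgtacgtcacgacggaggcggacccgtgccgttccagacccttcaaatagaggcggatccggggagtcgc
TGACNTCA was present in 3 of the 9 genes with a window (JUN, JUND and ATF3) and in 6.86% of all 34943 windows of that length. TGACGTCA was present in JUND alone and in 1.63% of all windows, and the CArG box in EGR1 alone, with 2 matches, and in 1.16% of all windows. TGANTCA was in none of the members' windows and in 6.59% of all windows. ATF3 has 2 windows in the table, of which the upstream one is printed. A gene was counted if any of its windows matched, whereas the percentages are of single windows, so the 2 are not on the same scale. These matches describe letters in a short window and not binding.

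In PARP1 KO, FOS was the gene of the group that moved most clearly, with both drugs. It stood at 44.1, 46.4 and 47.5 CPM with DMSO, 87.5, 85.7 and 79.3 CPM with niraparib, and 75.2, 89.4 and 69.1 CPM with olaparib. The drug libraries were all far above the DMSO libraries and overlapped each other. FOS rose by 0.88 on the log2 scale with niraparib (standard error 0.075, edgeR adjusted P = 8.2e-06) and 0.76 with olaparib (standard error 0.075, edgeR adjusted P = 2.2e-05), and the call held in every alternative analysis except the stricter fold criterion. With niraparib FOS was 1 of only 3 genes called over the whole transcriptome (0.0136% of 22037 tested), so 1 of the 10 was called. The unadjusted P value was below 0.05 for 5 of the 10 genes and for 9.13% of all genes.

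FOSB followed FOS in level but with wider spread, at 6.90, 5.71 and 4.46 CPM with DMSO, 10.2, 10.7 and 15 CPM with niraparib and 8.45, 14.2 and 12.3 CPM with olaparib. All drug libraries were above all DMSO libraries. FOSB changed by 1.09 on the log2 scale with niraparib (standard error 0.25, edgeR adjusted P = 0.24) and 1.03 with olaparib (standard error 0.25, edgeR adjusted P = 0.049). The niraparib change was called with DESeq2 (adjusted P = 0.016) and with no filter on low counts (adjusted P = 2.7e-06). The olaparib call was lost without DMSO replicate 1 (adjusted P = 0.053), DMSO replicate 2 (0.14), DMSO replicate 3 (0.13), olaparib replicate 2 (0.099) or olaparib replicate 3 (0.12), and with all 18 libraries in the fit (0.12).

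With olaparib 2 of the 10 genes were called in PARP1 KO, FOS and FOSB, where 0.803% of all genes were called. With the adjusted P value alone 5 were higher, against 8.29% of all genes in either direction and 4.42% higher. The additional 3 were JUNB (0.55, standard error 0.078, edgeR adjusted P = 3.0e-04), ATF3 (0.47, standard error 0.073, edgeR adjusted P = 5.6e-04) and IER2 (0.32, standard error 0.057, edgeR adjusted P = 0.0014), all below 1.5-fold. JUNB was above 1.5-fold without olaparib replicate 3 (0.63). JUNB in PARP1 KO had 39.0, 36.7 and 38.8 CPM with DMSO and 64.5, 53.6 and 49.1 CPM with olaparib, without overlap but with a wide spread among the olaparib libraries.

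ATF3 in PARP1 KO stood at 55.5, 53.9 and 46.9 CPM with DMSO, 63.0, 64.7 and 69.2 CPM with niraparib and 80.0, 66.0 and 70.8 CPM with olaparib. Niraparib libraries were higher than DMSO libraries, at a log2 fold change of 0.34 (standard error 0.074, edgeR adjusted P = 0.081), and the adjusted P value was 0.010 with DESeq2 and 5.3e-04 with no filter on low counts. JUN (0.27), JUND (0.10), FOSL2 (0.15) and EGR1 (0.22) with niraparib had edgeR adjusted P values from 0.60 to 0.81 and overlapping libraries. JUNB (0.19, edgeR adjusted P = 0.46) and IER2 (0.17, edgeR adjusted P = 0.32) did not pass the test either, but every niraparib library was above every DMSO library. Between niraparib and olaparib, 0 of the 10 were called in PARP1 KO by edgeR, where 1.07% of all genes were called and 3 of the 10 had an unadjusted P value below 0.05 (22.1% of all genes), and 0 were called by DESeq2. JUNB alone had an adjusted P value below 0.05 (-0.35 on the log2 scale, 95% interval from -0.52 to -0.19, edgeR adjusted P = 0.0060). FOSL1, at 3 to 21 counts in the drug libraries, was higher with niraparib by 1.42 (standard error 0.53, edgeR adjusted P = 0.096). It was called only without olaparib replicate 3 (1.92, adjusted P = 0.045). Over DMSO, FOSL1 changed by 0.77 with niraparib and -0.65 with olaparib (edgeR adjusted P = 0.70 and 0.57), with overlapping libraries.

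Whether the drug effects differed between genotypes was tested as an interaction over all 18 libraries. For niraparib 1 of the 10 was called, ATF3, whose change in PARP1 KO was smaller by 1.48 on the log2 scale (-1.48, standard error 0.12, edgeR adjusted P = 2.7e-08), where 8.88% of all genes were called. With the adjusted P value alone 5 of the 10 differed, against 22.9% of all genes. JUND (-0.58, standard error 0.077, edgeR adjusted P = 3.8e-07), FOSL2 (-0.39, standard error 0.11, edgeR adjusted P = 0.0058) and JUN (-0.55, standard error 0.16, edgeR adjusted P = 0.026) changed less in PARP1 KO than in WT, and FOS changed more (0.49, standard error 0.16, edgeR adjusted P = 0.038). FOSL1 was at -1.41 with a standard error of 0.65 and did not pass the test (edgeR adjusted P = 0.13). The adjusted P values of ATF3, JUND and FOSL2 stayed below 0.05 when any DMSO or niraparib library was left out.

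Those of JUN and FOS did not. JUN had 0.052 without WT DMSO replicate 3, 0.051 without WT niraparib replicate 2, and 0.054, 0.062 and 0.055 without PARP1 KO DMSO replicate 2, niraparib replicate 1 and niraparib replicate 2. FOS was above 0.05 without 10 of the 12 libraries, up to 0.10 without WT niraparib replicate 1, and was called without WT DMSO replicate 3 (0.62, adjusted P = 2.8e-05). JUND was past 1.5-fold without WT DMSO replicate 1, WT niraparib replicate 1 or 2, PARP1 KO DMSO replicate 3 or PARP1 KO niraparib replicate 2 (-0.63 to -0.60), and JUN without WT DMSO replicate 2, WT niraparib replicate 3, PARP1 KO DMSO replicate 3 or PARP1 KO niraparib replicate 3 (-0.68 to -0.59).

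For olaparib 0 of the 10 interactions were called by edgeR, where 0.657% of all genes were called, 6 of the 10 had an unadjusted P value below 0.05 (15.7% of all genes) and DESeq2 called 1. That gene was EGR1 (-0.94, standard error 0.28, edgeR adjusted P = 0.11, DESeq2 adjusted P = 0.023), which edgeR also called without PARP1 KO DMSO replicate 3 (-1.12, adjusted P = 0.043). Of the other genes with an unadjusted P value below 0.05, ATF3 was at -0.43 (standard error 0.12, edgeR adjusted P = 0.072), JUNB at -0.28 (adjusted P = 0.16), FOS at 0.44 (adjusted P = 0.18), FOSL1 at -1.49 (adjusted P = 0.30) and JUN at -0.36 (adjusted P = 0.31). The edgeR adjusted P value fell to 4.4e-05 for ATF3 with no filter on low counts. Leaving out 1 library gave 0.017 to 0.16 for ATF3, 0.0018 to 0.36 for FOS and 0.0096 to 0.36 for JUNB, all below 1.5-fold.

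**Figure D3:**
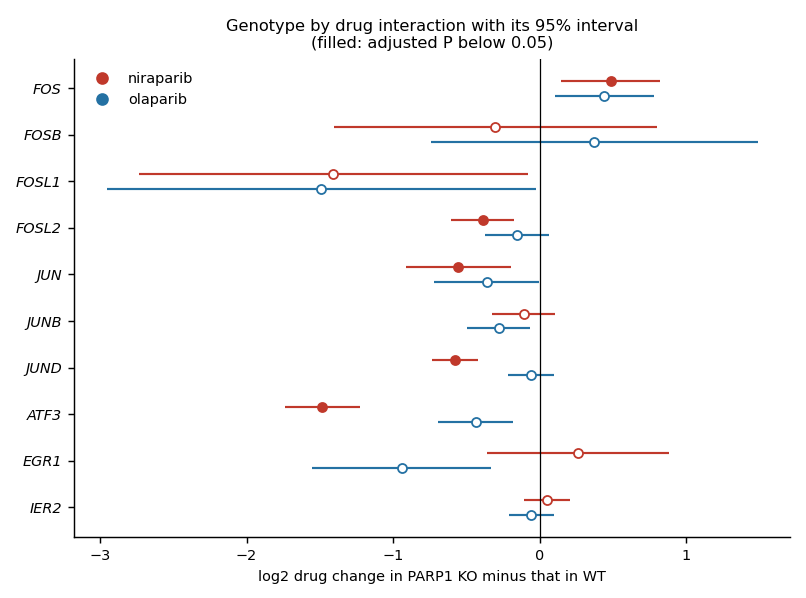
Difference between genotypes in the drug effect (x axis, log2 change over DMSO in PARP1 KO minus that in WT) for each gene (y axis) with its 95% interval, for niraparib (red) and olaparib (blue); filled circles had an adjusted P value below 0.05. ATF3 lies at -1.48 for niraparib, JUND, JUN and FOSL2 lie between -0.58 and -0.39, FOS lies at 0.49, and no olaparib circle is filled.

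With DMSO alone, EGR1 was the 1 gene of the 10 called between the genotypes, where 0.146% of all genes were called. It had 11.3, 12 and 7.75 CPM in WT and 23.6, 21.6 and 14.9 CPM in PARP1 KO, with no overlap and a log2 fold change of 0.95 (standard error 0.20, edgeR adjusted P = 0.045). The call was lost without WT DMSO replicate 1 (adjusted P = 0.16), 2 (0.053) or 3 (0.10), without PARP1 KO DMSO replicate 1 (0.14) or 2 (0.14), and with no filter on low counts (0.059). In PARP1 KO, EGR1 remained at 18.7, 23.3 and 27.4 CPM with niraparib and 26, 22.7 and 21 CPM with olaparib, overlapping its DMSO libraries. The log2 differences of the other 9 genes lay between -0.48 (FOSB) and 0.33 (FOSL1), with edgeR adjusted P values from 0.28 to 1.

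The shares of single genes in the 2 families are given without a test. With 3 libraries against 3 an exact permutation test cannot go below P = 0.1, and no model was fitted to the shares. On the per-length scale the JUN family summed to 235 ± 6.11 RPKM (SD, n = 3) with niraparib and 199 ± 8.50 with olaparib in WT, against 147 ± 8.21 with DMSO. JUNB made up 15.6 ± 1.01% of that sum with DMSO, 12 ± 0.692% with niraparib and 20.3 ± 0.582% with olaparib. These 3 groups did not overlap. In PARP1 KO the share of JUNB was 14.1 ± 1.47% with DMSO and 14.2 ± 0.442% with niraparib, which overlapped, and 17.5 ± 1.29% with olaparib, which did not overlap either. JUND in WT held 50.5 ± 1.30% with DMSO, 50.4 ± 1.43% with niraparib and, with olaparib, 42.4 ± 0.161%. In PARP1 KO, JUND held 51.3 ± 1.32%, 48.6 ± 1.63% and 48.0 ± 0.873% in the same order. In the FOS family of PARP1 KO, FOS made up 73.0 ± 1.23% with DMSO, 79.0 ± 1.003% with niraparib and 77.7 ± 1.06% with olaparib, while in WT it made up 69.5 ± 2.62%, 63.1 ± 3.32% and 67.9 ± 1.86% in the same order.

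**Figure D4:**
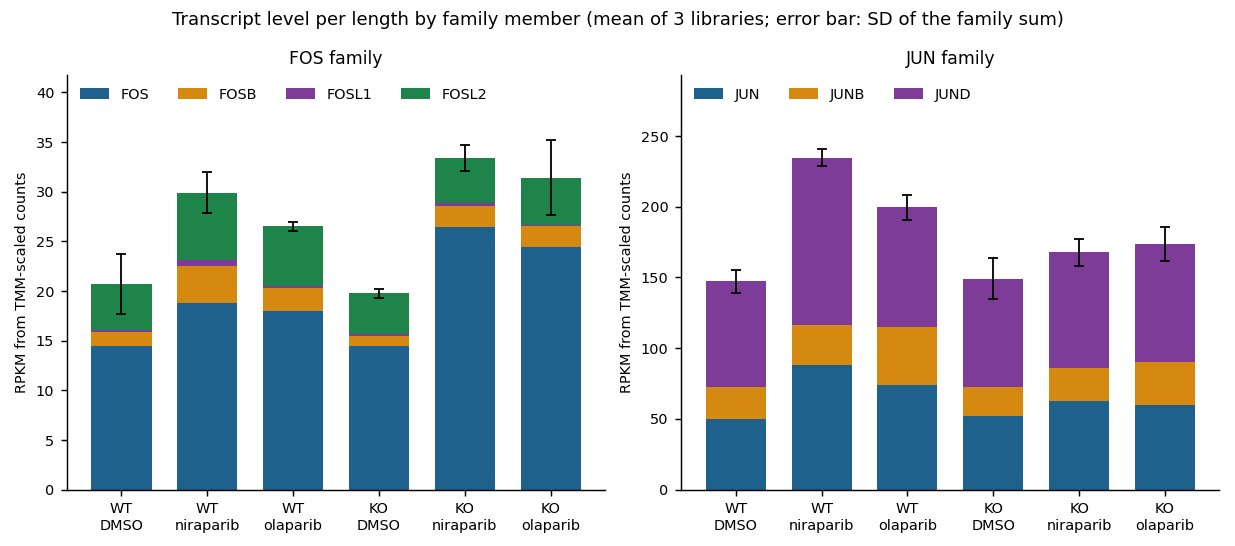
Mean level per length (y axes, RPKM from TMM-scaled counts) of the FOS family (left) and the JUN family (right) in the 6 groups, stacked by gene, with the SD of the family sum over 3 libraries as error bars. The JUN family sum is highest with niraparib in WT (235 RPKM), and the FOS family sum is highest with niraparib in PARP1 KO (33.4 RPKM), most of it FOS.

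Genes around the group were read from 4 lists. Of 36 other immediate early genes tested, 13 were called higher and 0 lower with niraparib in WT (list median 0.35 on the log2 scale), 1 of them, PTGS2, near zero counts in both groups, where 8.10% of all genes were called higher. BTG2, an antiproliferative p53 target, rose by 1.68 (standard error 0.057, edgeR adjusted P = 2.2e-15), from 29.8 ± 1.46 CPM to 95.9 ± 1.98 CPM (SD, n = 3), and PPP1R15A, which restores translation after stress, by 1.48 (standard error 0.066, edgeR adjusted P = 7.8e-13). ARC (1.87) and the small GTPase gene GEM (1.5) were also among those called. With olaparib in WT 11 were called higher, and MYC was called lower, where 4.04% of all genes were called. Of those called higher and averaging at least 1 CPM, BTG2 (1.57), PPP1R15A (0.95), GEM (0.80) and NR4A1 (0.76) rose most. In PARP1 KO only DUSP1, a phosphatase that ends MAP kinase signaling, was called with niraparib (0.74, standard error 0.067, edgeR adjusted P = 5.9e-06), and with olaparib BTG2 (0.85), DUSP1 (0.73) and GADD45B (0.62) were, against 0.0136% and 0.803% of all genes. For niraparib the change over DMSO differed between genotypes in 9 of 37, where 8.88% of all genes were called. In all 9 that change, not the level, was lower in PARP1 KO than in WT. Among those averaging at least 1 CPM, BTG2 (-1.45) and GEM (-1.44) are examples.

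Of 23 further bZIP genes, 7 were called higher with niraparib in WT and 0 lower (median 0.39, with 8.10% of all genes called higher and 4 of the 23 lower at an unadjusted P value below 0.05). CREB5 went from 2.73 ± 0.711 CPM to 27 ± 3.89 CPM (SD, n = 3), a log2 fold change of 3.27 (standard error 0.15, edgeR adjusted P = 1.3e-11), and stayed at 3.45 ± 0.179 CPM with olaparib. CEBPB rose by 1.12 and the stress factor DDIT3 by 1.09 with niraparib, and DDIT3 by 1.2 with olaparib, where 5 were called higher against 2.06% of all genes. In PARP1 KO 0 of the 23 were called with niraparib by edgeR (2 at an unadjusted P value below 0.05), where 0.0136% of all genes were called and 9.13% had such a P value, so neither count stands apart from the background. With olaparib 1 was called, DDIT3 (0.91, standard error 0.12, edgeR adjusted P = 0.0032), against 0.803% of all genes, and 12 of the 23 had an unadjusted P value below 0.05, 11 of them higher, against 21.1% of all genes. The interaction with niraparib called 8 lower, CREB5 at -2.80, and 1 higher, against 8.88% of all genes.

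Of 19 kinases and factors upstream of AP-1 tested, 1 was called with niraparib in WT, MRTFA, a coactivator of serum response factor (0.83, standard error 0.062, edgeR adjusted P = 5.6e-10), and 0 with olaparib in WT or with either drug in PARP1 KO. Of all genes, 13.8% and 4.04% were called with niraparib and olaparib in WT, and 0.0136% and 0.803% in PARP1 KO. In WT, 12 had an unadjusted P value below 0.05 with niraparib (7 higher and 5 lower, with 44.8% of all genes below 0.05) and 8 with olaparib (30.2% of all genes). In PARP1 KO there were 1 with niraparib (9.13% of all genes) and 7 with olaparib (21.1% of all genes).

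Of 16 AP-1 target genes tested in WT, 9 were called higher and 1 lower with niraparib, and 6 higher and 1 lower with olaparib, against 13.8% and 4.04% of all genes called. FOSL1 is both a member of the group and a target on this list. The median was 1.44 with niraparib and 0.66 with olaparib, or 0.64 and 0.50 with the 4 genes near zero in a group set to their bound. AREG, a ligand of the epidermal growth factor receptor, stood at 55.7 ± 1.79 CPM with DMSO, 199 ± 14.1 CPM with niraparib and 121 ± 4.67 CPM with olaparib (SD, n = 3), log2 fold changes of 1.84 (edgeR adjusted P = 2.9e-16) and 1.12 (edgeR adjusted P = 7.8e-12). HBEGF, a ligand of the same receptor, rose by 2.04 with niraparib (standard error 0.14, edgeR adjusted P = 2.1e-10). MMP10, a matrix metalloproteinase with 0 to 1 counts per library in DMSO, had 102 to 288 counts with niraparib, at least 51.6-fold higher against a floor of 3 counts per library. CCND1, which encodes cyclin D1, fell by 1.06 with niraparib (standard error 0.060, edgeR adjusted P = 1.9e-11). With olaparib its fall was 0.77 (-0.77, edgeR adjusted P = 2.3e-08). In PARP1 KO 0 of 15 were called with either drug by edgeR (3 with niraparib and 4 with olaparib at an unadjusted P value below 0.05), where 0.0136% and 0.803% of all genes were called and 9.13% and 21.1% had such a P value. AREG there had 54.6 ± 1.71 CPM with DMSO, 61.2 ± 0.775 CPM with niraparib and 70.4 ± 4.43 CPM with olaparib.

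Over the 18 libraries, the genes most like each member in log2 CPM, FOSL1 left out because it averaged below 1 CPM, were searched among the 9802 genes that averaged 10 CPM or more. JUNB and IER2 were each other's nearest gene (Pearson r = 0.97). ATF3 was nearest to AMBRA1 (r = 0.99), FOSL2 to NBR1 (0.97), JUND to DUSP8 (0.96), FOSB to PPFIA1 (0.95) and JUN to BMP1 (0.94), with the immediate early gene PPP1R15A also among the 3 nearest to JUN (0.94). FOS and EGR1 had looser neighbors, FOS with CCN1 (0.89) and EGR1 with PLCB3 (0.83). These values describe libraries that share treatments. Within groups, as deviations from the group means, JUN and EGR1 went together most closely (r = 0.92 over 18 libraries), then JUNB and IER2 (r = 0.85), and JUN and ATF3 (r = 0.76), while FOS reached at most r = 0.39, with FOSB. The pairs of a library share its depth and handling.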

How the data were processed

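Poly(A) RNA sequencing of 18 T47D libraries was used. The authors aligned trimmed reads with STAR, marked duplicates and deposited raw counts per gene from featureCounts 2.0.0 (exons, reverse strand, GRCh38, Ensembl release 96). The methods say that duplicates were identified and quantified, and the file headers name the count output as deduplicated, so duplicate reads may have been removed before counting. Symbols were matched for 58472 of 58884 identifiers. Counts were fitted with edgeR 4.0.16 (quasi-likelihood, robust, TMM scaling) in R 4.3.3, per genotype for drug effects and over all 18 libraries for genotype effects and interactions. Genes whose counts summed to more than 10 in a fit were tested, and P values were adjusted over all of them. The study's stated tool, DESeq2 (version 1.42.0 here), was an alternative, with other scaling, filters, thresholds, a replicate block and leaving out each library of the groups compared. CPM were TMM-scaled, and RPKM used the exon length in the files. Counts were simulated with the dispersions of the edgeR fit, and 200 genes averaging at least 1 CPM were changed by 1 on the log2 scale. Of these, 182 were recovered for niraparib in WT (21879 genes, 1 other called), 183 in PARP1 KO (21521 genes, 9 others called) and 172 for the niraparib interaction (24076 genes, 7 others called). Smaller changes, and changes in genes below 1 CPM such as FOSL1, were not simulated. All 10 members were named, with up to 4 called genes of largest change per list and comparison averaging 1 CPM or more, and, for the 9 members averaging 1 CPM or more, the nearest of the 3 genes most like each (for JUN also PPP1R15A, chosen after its value was seen). The members and lists were chosen with earlier results of these data known.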

Additional observations from a re-analysis of the deposited data

Results flagged for a closer look

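For 5 of the 10 genes the niraparib effect differed between genotypes when the difference itself was tested (interaction over all 18 libraries, edgeR adjusted P below 0.05), against 22.9% of all genes. The change in PARP1 KO minus that in WT was -1.48 for ATF3, -0.58 for JUND, -0.55 for JUN, -0.39 for FOSL2 and 0.49 for FOS on the log2 scale. FOS was thus the 1 gene of these 5 with the larger change in PARP1 KO. When 1 library was left out the adjusted P value reached 0.062 for JUN and 0.10 for FOS, which was above 0.05 without 10 of the 12 libraries, whereas ATF3, JUND and FOSL2 stayed below 0.05. The summed luminal markers also moved more with niraparib in WT, from 13010 to 13630 CPM with DMSO to 9463 to 10473 CPM, than in PARP1 KO, from 14481 to 15167 CPM to 13443 to 13737 CPM, and their part in these differences was not tested.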

How the results depend on the processing

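Over the alternatives, 1096 values kept their direction and their side of the threshold, 21 gained a call, 21 lost one and 27 changed sign. With the adjusted P value alone the number of genes called of the 10 was 8 for niraparib, 7 for olaparib and 7 between the drugs in WT, 5 for olaparib and 1 between the drugs in PARP1 KO, and 5 for the niraparib interaction. Above 1.5 on the log2 scale it was 2 for niraparib in WT and 0 for olaparib or between the drugs in WT, for niraparib or olaparib in PARP1 KO, for PARP1 KO against WT with DMSO and for the niraparib interaction. It was 2 for niraparib in PARP1 KO with no filter on low counts and with DESeq2, 1 for olaparib in PARP1 KO with all 18 libraries, 0 for PARP1 KO against WT and 4 for niraparib in WT with no filter, and 1 for the olaparib interaction with DESeq2. Leaving out 1 library gave 4 to 5 for niraparib, 3 to 4 for olaparib and 2 to 4 between the drugs in WT, 1 to 2 for olaparib and 0 to 1 between the drugs in PARP1 KO, 0 to 1 for PARP1 KO against WT, 1 to 3 for the niraparib and 0 to 1 for the olaparib interaction. The causes were not tested.

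Same-numbered libraries did not deviate together (15 of 45 pairs had r above 0.1, from -0.54 to 0.55), so the numbers are not taken as pairs. With the replicate block FOSB was no longer called for niraparib in WT (1.38, adjusted P = 0.072) or for olaparib in PARP1 KO (1.01, adjusted P = 0.13), which left 1 gene called in the latter, and no other call of the 10 genes changed.

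The changes of sign were in values that did not pass the test. Leaving out 1 library moved EGR1 with niraparib in WT from -0.22 to 0.087. Between the drugs in PARP1 KO it moved FOSB from -0.14 to 0.24, FOSL2 from -0.14 to 0.026, JUN from -0.014 to 0.13, JUND from -0.054 to 0.019 and EGR1 from -0.13 to 0.14, and EGR1 was -0.0024 with all 18 libraries. For PARP1 KO against WT it moved FOS from -0.14 to 0.10, FOSL1 from -0.27 to 0.72, JUN from -0.068 to 0.18 and JUND from -0.013 to 0.090. FOS there was -0.0037 with RLE size factors, -0.0051 with filterByExpr, -0.00027 with no filter and -0.0047 with DESeq2. FOSB moved from -0.70 to 0.12 in the niraparib and from -0.026 to 0.60 in the olaparib interaction. FOSL1 had the fewest counts of the members, at 3 to 84 per library.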
